A study of Mus musculus with 24 samples.

Results

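The 10 genes described here encode protein kinase A (PKA) and the enzymes that set the level of its activator, cyclic AMP (cAMP). They were taken by symbol from a table of 15456 genes, and all 10 were found and passed the filter on low values, as did 14974 genes in all. *Prkaca* and *Prkacb* encode catalytic subunits of PKA, *Prkar1a* and *Prkar1b* its type I regulatory subunits and *Prkar2a* and *Prkar2b* its type II regulatory subunits. *Adcy1* and *Adcy9* encode adenylyl cyclases, which make cAMP, and *Pde4b* and *Pde4d* encode phosphodiesterases, which break it down. *Prkacb* is also named by the study, which picked it from these same mice, so its values are not independent evidence of a direction.

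The study asked how supplementation with *Ruminococcus flavefaciens*, an anaerobic bacterium of the gut, changes gene expression in the medial prefrontal cortex (mPFC) of mice that do or do not receive duloxetine, a drug against depression that inhibits both the serotonin and the norepinephrine transporter. RNA of 24 male BALB/C mice (BALB/c OlaHsd in the methods), aged 11 weeks, was sequenced, with 1 library per mouse and 6 mice in each of 4 groups, control, duloxetine, *R. flavefaciens* and *R. flavefaciens* + duloxetine. Duloxetine was injected daily into the peritoneum and the bacterium was given alive by gavage, while mice without the drug or the bacterium received PBS by the same route, according to the methods. All mice were therefore injected and gavaged, none was exposed to a separate stress protocol, and the tissue was a punch of frontal cortex that holds all of its cell types. Mice are named by their label numbers, such as 9_3. Values are normalized counts, in which each library was scaled by its own size factor. Undoing the scaling gave from 12811413 to 15607343 reads per mouse. The median depth was lowest in control mice (13591497) and highest in mice given both treatments (14621656), with 14536037 after duloxetine and 13943370 after the bacterium.

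PKA is a tetramer in which a pair of regulatory subunits holds a pair of catalytic subunits inactive. Receptors coupled to stimulatory G proteins activate adenylyl cyclase, cAMP binds the regulatory subunits, and the released catalytic subunits phosphorylate channels, receptors and the transcription factor CREB. In cortical neurons this pathway is known for its part in synaptic plasticity and in the response to monoamines, and A-kinase anchoring proteins tether PKA near its substrates.

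CREB binds the cAMP response element TGACGTCA, and the shorter core TGACG, read on either strand as TGACG or CGTCA, is contained in it. RefSeq promoter windows of 300 bases, from 250 before to 50 after a transcript start on GRCm38.p6, were searched for both, since the promoters show where the pathway could act on its own genes. The 10 genes matched 26 windows. The full element was in 2 of them, both of *Prkar1a* and both around the same site, against 1.79% of all 32851 windows. The core was in 9 windows, or 34.6% of their windows against 20.8% of all windows, but windows of a gene can overlap and then hold the same site. By gene, 7 of the 10 held the core and 1 the full element, against 34.5% and 3.61% of the 11123 genes tested that had a window, and *Prkar2b*, *Adcy1* and *Pde4d* had neither. A match is a description of letters and not evidence of binding. A stretch of 30 bases is shown for *Prkar1a*, which holds the full element, and stretches of 100 bases for *Prkacb* and *Adcy9*, which hold a core and are described below, with the element or core in capitals, 5′ to 3′ on the gene's strand.
Prkar1a: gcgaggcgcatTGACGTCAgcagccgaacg
Prkacb: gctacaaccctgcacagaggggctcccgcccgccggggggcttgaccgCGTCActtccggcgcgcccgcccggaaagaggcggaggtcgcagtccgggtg
Adcy9: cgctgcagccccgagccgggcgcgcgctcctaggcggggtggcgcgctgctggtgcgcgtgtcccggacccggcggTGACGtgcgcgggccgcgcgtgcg
The *Prkar1a* stretch is chr11:109650889-109650918 on the plus strand, inside the gene, with the element starting 38 bases after an annotated RefSeq transcript start and 49 bases before the next. The *Prkacb* stretch is chr3:146812997-146813096 on the minus strand, upstream of the gene, with the core starting 102 bases before a start. The *Adcy9* stretch is chr16:4420499-4420598 on the minus strand, directly upstream of the gene as GENCODE gives it, while the RefSeq gene, from 4284886 to 4437236, spans it, with the core starting 24 bases before a start.

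A pair of *R. flavefaciens* mice stood apart from their group. The SD of a mouse's log2 differences from the mean of its group mates, over all genes tested, was 0.35 in mouse 9_3 and 0.33 in mouse 8_4, while mouse 7_2, the next of the 24, had 0.32 and the lowest mouse 0.23. In mouse 9_3 these differences went with transcript length, with a Spearman correlation of -0.47 over genes, against a range from -0.18 to 0.31 in the other 23 mice. Of the 10 PKA and cAMP genes, 6 had their lowest value of all 24 mice in mouse 9_3, and 6 had their lowest or next lowest value in mouse 8_4. The main counts and fold changes of the *R. flavefaciens* group are therefore given with and without mouse 9_3. Mouse 8_4 also stood apart in markers of the striatum, a neighbouring region. The normalized counts of 6 striatal markers, led by *Penk*, summed to 2933 in mouse 8_4 and to 1804 in mouse 11_4 of the combined group, while the other 22 mice ranged from 668 to 1150 (median 862) and mouse 9_3 had 893. Mouse 12_2 of the combined group also had the lowest or next lowest of all values for 6 of the genes.

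In control mice the genes covered a wide range of levels. Counts were divided by the merged length of the annotated exons, in kilobases (kb), so that genes could be compared, and the following are levels in normalized counts per kb. *Prkar1b* was the highest with 3716 ± 97.0 (SD, n = 6), followed by *Prkar1a* with 2661 ± 56.2 and *Adcy1* with 1901 ± 128. The catalytic subunits came next, *Prkaca* with 1264 ± 55.4 and *Prkacb* with 1170 ± 35.0, and the ranges of these neighbours overlapped. The type II subunits were lower, *Prkar2b* with 339.8 ± 16.96 and *Prkar2a* with 238 ± 5.30, and *Adcy9*, with 228 ± 10.2, overlapped *Prkar2a*. *Pde4b* had 136 ± 5.83 and *Pde4d* had 73.7 ± 4.02. The other neighbours in this order did not overlap between control mice. Merged exons add up all isoforms, so a gene that uses only some of its exons, as the long phosphodiesterase genes may, has a higher level per expressed base than this measure gives.

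**Figure D1:**
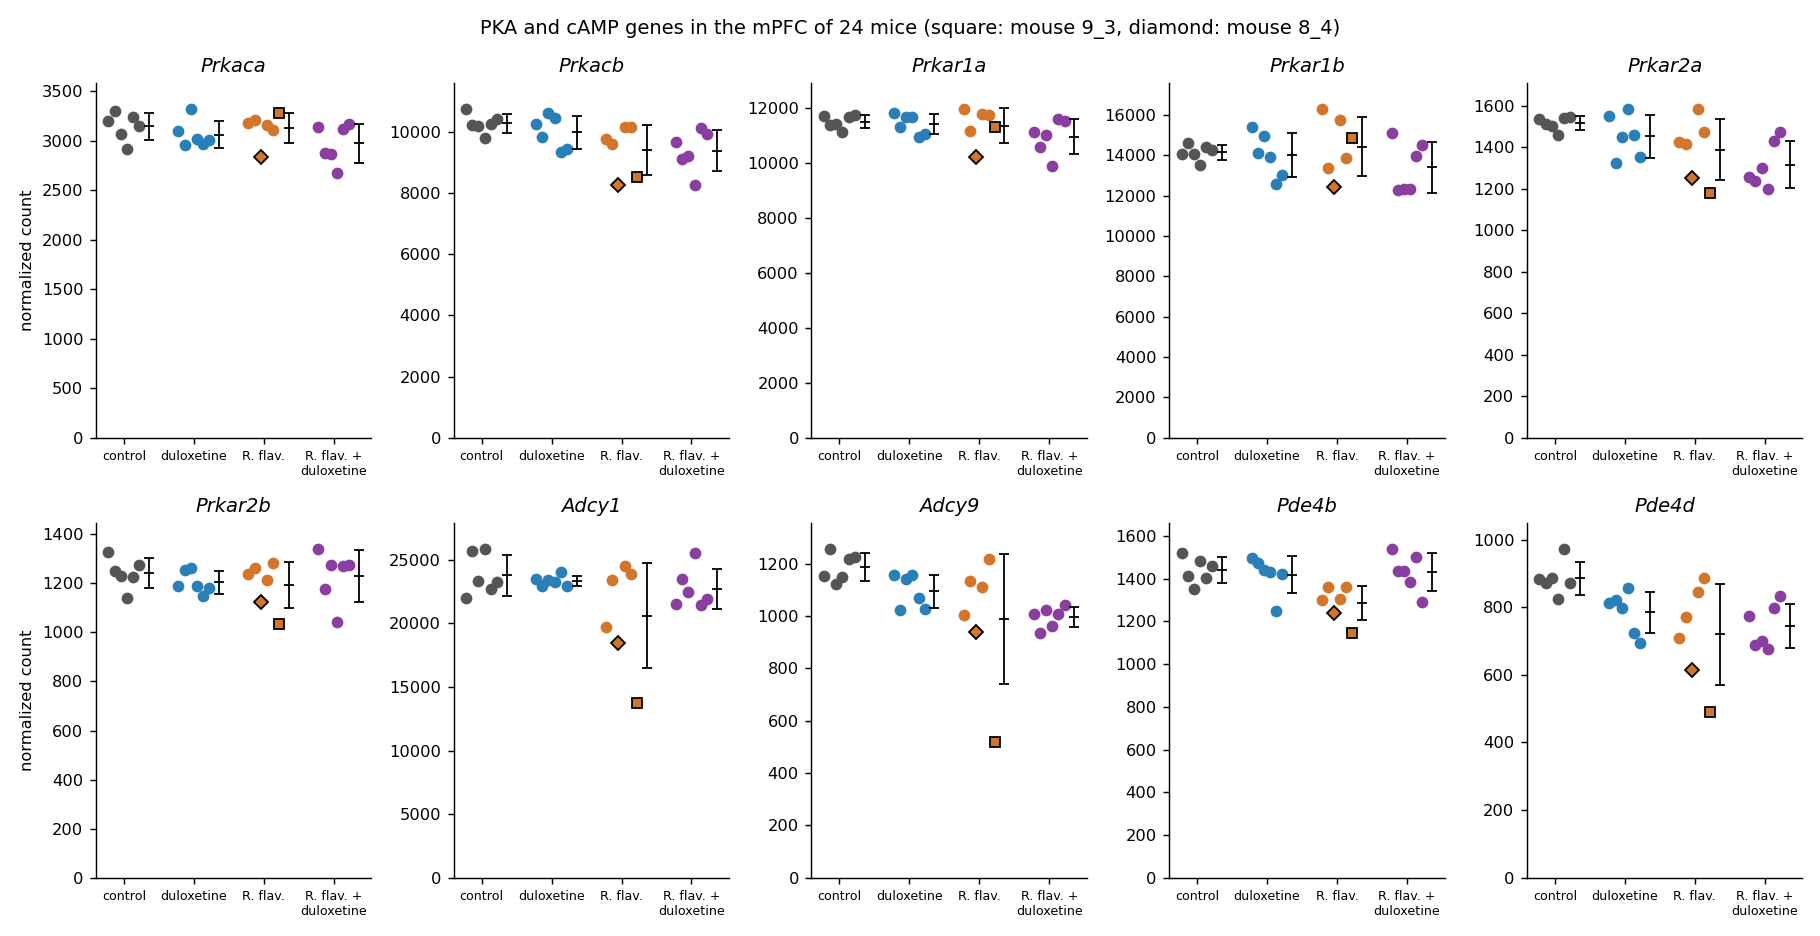
Normalized counts of the 10 genes in each of the 24 mice, 1 panel per gene with its own y axis from 0, and beside the points the group mean ± SD (n = 6 mice). The square marks mouse 9_3 and the diamond mouse 8_4, both of the R. flavefaciens group, and the square lies far below its group mates for Adcy1 and Adcy9.

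The first question was whether *R. flavefaciens* alone changed these genes. After the bacterium *Pde4d*, *Adcy9*, *Adcy1*, *Pde4b*, *Prkar2a* and *Prkacb* had lower means than in controls. Converted from the log2 fold changes, these differences ran from -8.65% for *Prkacb* to -20.2% for *Pde4d*. Those of *Prkaca*, *Prkar1a*, *Prkar1b* and *Prkar2b* were smaller, with *Prkar1b* 1.54% above the control level. None of the 10 passed an adjusted p of 0.05 in limma, against 0.0267% of all genes tested, while 6 were lower at an unadjusted p under 0.05, against 10.8% of all genes. DESeq2 on the recovered reads called 2 of the 10, *Pde4b* and *Pde4d*, where it called 5.6% of the genes to which it gave an adjusted p, and edgeR called 0, against 0.02% of all genes. The median log2 fold change of the 10 genes was -0.13, and that of all genes 0.00313. Without mouse 9_3 the median of the 10 was -0.09 and 3 of them were lower at an unadjusted p under 0.05, against 6.13% of all genes, *Adcy9*, *Pde4b* and *Pde4d*. Without mice 8_4 and 9_3 together, a choice made after seeing the data, the median was -0.045 and *Pde4b* alone was lower at that p. The share of all genes lower in that setting is not given here, so that count cannot be set against it. For no gene did all 6 treated mice lie below every control mouse, as they did for 0.835% of all genes. In bulk tissue, fewer cells of a type that expresses a gene and less RNA per cell cannot be told apart.

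The catalytic subunit gene *Prkacb* (ENSMUSG00000005034.15) is transcribed from the minus strand of chromosome 3 (GRCm38, 146729574 to 146812990). Its values ran from 9803 to 10742 normalized counts in control mice (median 10235), from 9323 to 10623 in duloxetine mice (median 10036), from 8266 to 10160 in *R. flavefaciens* mice (median 9678) and from 8250 to 10133 in mice given both (median 9424). Mice 8_4, 9_3 and 12_2 were the low ones, and 4 of 6 mice of each group given the bacterium lay below every control mouse. Its log2 fold change against control, on the log2(value + 1) scale, was -0.13 (standard error (SE) 0.056) after the bacterium and -0.13 (SE 0.056) after both treatments, with limma adjusted p = 0.192 and 0.236, and without mouse 9_3 it was -0.10 (adjusted p = 0.483) after the bacterium. *Prkaca* (ENSMUSG00000005469.10, chromosome 8, plus strand, from 83972993 to 83996443) ranged from 2917 to 3302 in controls (median 3173) and from 2834 to 3278 after the bacterium (median 3170), and the groups overlapped over most of their range. It was not lower in mouse 9_3, which had the highest value of its group, and its log2 fold change was -0.01 (SE 0.047, adjusted p = 0.946). After both treatments *Prkaca* ranged from 2670 to 3164 (median 2997), with 3 of 6 mice below every control and a log2 fold change of -0.08 (SE 0.047, adjusted p = 0.362). The ratio of *Prkacb* to *Prkaca* counts, which does not depend on the size factor, was 3.27 ± 0.111 in control, 3.26 ± 0.126 in duloxetine, 3.01 ± 0.243 in *R. flavefaciens* and 3.15 ± 0.067 in combined mice (SD, n = 6 each), and 3.09 ± 0.149 (n = 5) in *R. flavefaciens* mice without mouse 9_3.

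Type I regulatory subunits, the most abundant of the 10 per kb, differed little after the bacterium alone. *Prkar1a* (ENSMUSG00000020612.16) is on the plus strand of chromosome 11, from 109649405 to 109669656, and had from 11114 to 11730 normalized counts in controls (median 11528) and from 10223 to 11966 after the bacterium (median 11529). The treated mice surrounded the controls, 1 below and 3 above all of them, with a log2 fold change of -0.02 (SE 0.044, adjusted p = 0.858). *Prkar1b* (ENSMUSG00000025855.13), on the minus strand of chromosome 5 from 139017306 to 139150001, ranged from 13522 to 14596 in controls (median 14168) and from 12450 to 16299 after the bacterium (median 14360). It spread more in the treated mice than in controls, and its log2 fold change was 0.02 (SE 0.066, adjusted p = 0.891). In mice given both treatments *Prkar1a* ranged from 9882 to 11606 (median 11064) and *Prkar1b* from 12267 to 15096 (median 13141). In each case 3 of 6 mice lay below every control, with log2 fold changes of -0.07 (SE 0.044, adjusted p = 0.414) for *Prkar1a* and -0.08 (SE 0.066, adjusted p = 0.53) for *Prkar1b*. An exon of the transcript *Gm15672*, with a mean of 14.9 counts, overlaps *Prkar1b*.

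Of the type II subunits, *Prkar2a* (ENSMUSG00000032601.13, chromosome 9, plus strand, from 108689314 to 108750436) had the lower level per kb but the higher counts. It was tight in controls, from 1458 to 1548 normalized counts (median 1523), and ranged from 1323 to 1585 in duloxetine mice (median 1453), from 1178 to 1584 in *R. flavefaciens* mice (median 1421) and from 1197 to 1474 in mice given both (median 1280). Of the 6 mice given both, 5 lay below every control mouse. The log2 fold change was -0.13 (SE 0.063, adjusted p = 0.238) after the bacterium and -0.21 (SE 0.063, adjusted p = 0.125) after both. Without mice 8_4 and 9_3 *Prkar2a* was called after both treatments (limma adjusted p = 0.0386), as were 339 genes in all. Without mouse 9_3 the value after the bacterium was -0.09 (adjusted p = 0.577). *Prkar2b* (ENSMUSG00000002997.15, chromosome 12, minus strand, from 31958476 to 32061296) ranged from 1140 to 1326 in controls (median 1239) and from 1036 to 1284 after the bacterium (median 1226), with mice 9_3 and 8_4 the only ones below the controls. Its log2 fold change was -0.06 (SE 0.057, adjusted p = 0.594), -0.02 (adjusted p = 0.922) without mouse 9_3 and, after both treatments, -0.02 (SE 0.057, adjusted p = 0.915). The ratio of type I to type II counts, summed over both genes of each type, was 9.31 ± 0.176 in control, 9.57 ± 0.379 in duloxetine, 10.04 ± 1.01 in *R. flavefaciens* and 9.57 ± 0.371 in combined mice, and it was most spread after the bacterium alone, from 9.17 to 11.8. Without mouse 9_3 it was 9.69 ± 0.578 (n = 5) in that group.

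The adenylyl cyclases had lower means after the bacterium and rested most on mouse 9_3. *Adcy1*, a calcium-stimulated cyclase of neurons (ENSMUSG00000020431.5, chromosome 11, plus strand, from 7063489 to 7178506), ranged from 21971 to 25863 normalized counts in controls (median 23303), from 22906 to 24013 in duloxetine mice (median 23354), from 13750 to 24475 in *R. flavefaciens* mice (median 21570) and from 21437 to 25532 in mice given both (median 22213). Mouse 9_3 had 58.7% of the median of its 5 group mates and mouse 8_4, with 18428, was next lowest. The log2 fold change was -0.23 (SE 0.093, adjusted p = 0.166), and -0.12 (adjusted p = 0.49) without mouse 9_3, while after both treatments it was -0.07 (SE 0.093, adjusted p = 0.743). *Adcy9* (ENSMUSG00000005580.11, chromosome 16, minus strand, from 4287529 to 4420498), a widely expressed cyclase, ranged from 1122 to 1257 in controls (median 1185), from 1022 to 1156 in duloxetine mice (median 1105), from 520 to 1220 in *R. flavefaciens* mice (median 1059) and from 937 to 1041 in mice given both (median 1009). Mouse 9_3, the lowest, had 46.8% of the median of its group mates, whereas the mice given both lay close together and all below every control. After the bacterium alone the log2 fold change was -0.31 (SE 0.12, adjusted p = 0.151), and -0.14 (adjusted p = 0.329) without mouse 9_3. Over the 35 alternatives the adjusted p after the bacterium ranged from 0.0748 to 0.796 for *Adcy1* and from 0.0604 to 0.622 for *Adcy9*.

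After the bacterium alone, the PDE4 phosphodiesterases were the nearest of the 10 genes to the threshold. *Pde4d* (ENSMUSG00000021699.17, chromosome 13, plus strand, from 108449948 to 109953461) ranged from 825 to 973 normalized counts in controls (median 878), from 696 to 856 in duloxetine mice (median 805), from 489 to 888 in *R. flavefaciens* mice (median 740) and from 675 to 833 in mice given both (median 737). Of the 6 mice, 4 given the bacterium alone, 5 given duloxetine alone and 5 given both lay below every control. Its log2 fold change after the bacterium was -0.32 (SE 0.097, adjusted p = 0.0899), and it was called when mouse 9_1 (adjusted p = 0.0487) or mouse 9_2 (adjusted p = 0.0342) was left out and was -0.22 (adjusted p = 0.256) without mouse 9_3. Without mouse 9_1 or 9_2, 239 and 616 of all genes were called, where the main fit called 4. Over the 35 alternatives the adjusted p of *Pde4d* ranged from 0.0342 to 0.551. After both treatments its log2 fold change was -0.25 (SE 0.097, adjusted p = 0.21). *Pde4b* (ENSMUSG00000028525.16, chromosome 4, plus strand, from 102087543 to 102607259) ranged from 1352 to 1523 in controls (median 1438), from 1148 to 1363 after the bacterium (median 1303) and from 1291 to 1540 after both treatments (median 1436). The *R. flavefaciens* mice overlapped the controls only at the edge, and the combined group covered the control range. The log2 fold change was -0.16 (SE 0.051, adjusted p = 0.0962) after the bacterium, -0.13 (adjusted p = 0.294) without mouse 9_3, and -0.01 (SE 0.051, adjusted p = 0.946) after both. At an adjusted p under 0.1, *Pde4b* and *Pde4d* were the 2 called of the 10, against 3.87% of all genes tested.

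**Figure D2:**
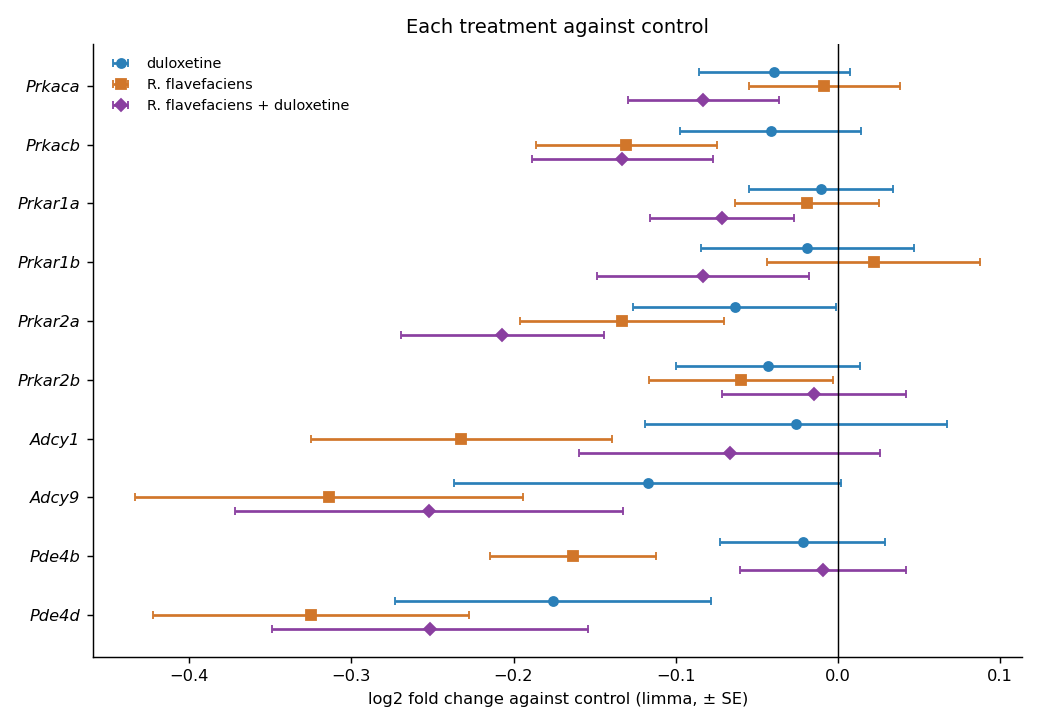
Log2 fold change of each gene against control, on the log2(value + 1) scale, with its standard error from limma, for the 3 treated groups of 6 mice each. Pde4d and Adcy9 have the lowest values after R. flavefaciens, -0.32 and -0.31, and Pde4b is low after the bacterium alone but not after both treatments.

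The second question was how mice given both treatments differed from control mice, a comparison that holds the drug and the bacterium together. In mice given both treatments all 10 genes had a fold change below 0 against control, as did 49.8% of all genes, from -0.25 for *Adcy9* and *Pde4d* to -0.01 for *Pde4b* on the log2 scale, with a median of -0.08 against 0.000724 for all genes. Limma called 0 of the 10, against 0.1% of all genes, and 4 were lower at an unadjusted p under 0.05, against 8.73% of all genes, namely *Prkar2a*, *Pde4d*, *Prkacb* and *Adcy9*. DESeq2, which called 1.68% of the genes to which it gave an adjusted p, and edgeR, which called 0.107%, called 0 of the 10. *Adcy9* was the gene with no overlap, with all 6 mice below every control, as held for 1.16% of all genes, and its log2 fold change was -0.25 (SE 0.12, adjusted p = 0.287). That standard error draws on all 4 groups, and *Adcy9* was called when mouse 9_3, which belongs to another group, was left out (adjusted p = 0.0276) or when only these groups were fitted (adjusted p = 0.0245), as was *Pde4d* in the latter case (adjusted p = 0.0471). These 2 settings called 123 and 196 of all genes, where the main fit called 15. Over the 35 alternatives the adjusted p ranged from 0.0146 to 0.447 for *Adcy9* and from 0.0386 to 0.378 for *Pde4d*. The count of 4 lower genes became 2 without control mouse 1_1 or without mouse 12_2, and the shares of all genes in these settings are not given here. This comparison and the one of the bacterium alone share the 6 control mice, so their values are given side by side and no likeness between them is drawn.

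The third question was whether duloxetine alone changed these genes, and whether the bacterium did so in mice given the drug. Limma called 0 of the 10 against control, with 0% of all genes called, and 0 had an unadjusted p under 0.05, against 3.83% of all genes, with DESeq2 (0.00668% of all genes) and edgeR (0% of all genes) also at 0 of the 10. All 10 fold changes were below 0, as were 51.0% of those of all genes, with a median of -0.04 on the log2 scale against -0.00184 for all genes, and the lowest was that of *Pde4d* with -0.18 (SE 0.097, adjusted p = 0.9996). The count of 0 became 2, *Adcy9* and *Pde4d*, both lower, without mouse 9_3 of another group, against 2.03% of all genes, and when only the groups compared were fitted, against 3.71%. Between the combined and the duloxetine group limma called 0 of the 10, with 0% of all genes called, as did DESeq2 (0.00668% of all genes) and edgeR (0%), and *Prkar2a*, at -0.14 (SE 0.063, adjusted p = 0.816), was the 1 gene with an unadjusted p under 0.05, against 5.9% of all genes. It was joined by *Adcy9* without mouse 9_3, against 4.11% of all genes lower, and with only the groups compared, against 3.63%, and the count was 0 without any 1 of mice 5_1, 6_1, 10_2, 11_3 and 12_2. For those last settings the shares of all genes are not given here.

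The combined and the *R. flavefaciens* group differed in 2.23% of all genes in limma, but in 0 of these 10. DESeq2, with 4.07% of all genes called, and edgeR, with 2.04%, also called 0 of the 10. *Pde4b* came nearest, with 0.15 higher on the log2 scale in mice given both (SE 0.051, adjusted p = 0.099), the 1 gene with an unadjusted p under 0.05, against 19.7% of all genes. It was called when mouse 12_4 of the combined group was left out, as were 474 genes in all. Without mice 8_4 and 9_3 together, *Prkar1a*, *Prkar1b*, *Prkar2a* and *Adcy9* were lower in the combined group at an unadjusted p under 0.05, against 10.5% of all genes, and *Pde4b* was not among the higher ones. *Prkaca* and *Prkar1b* were lower without mouse 8_4 alone and *Prkar1b* without mouse 10_2, and *Adcy1* was also higher without mouse 8_3, 9_1 or 9_2. With these single mice left out, the shares of all genes are not given here. The median difference of the 10 genes was 0.02, and -0.04 without mouse 9_3, when *Pde4b* had 0.12 (adjusted p = 0.211). The interaction, that is, the difference between the bacterium's effects in mice with and without the drug, was called for 0 of the 10 by limma, DESeq2 and edgeR, with 0% of all genes called by each. Again *Pde4b* was the 1 gene with an unadjusted p under 0.05, against 7.53% of all genes, with an interaction of 0.18 on the log2 scale (SE 0.072, adjusted p = 0.639). The median interaction of the 10 genes was 0.06, and without mouse 9_3 it was 0.00727 and that of *Pde4b* 0.14 (adjusted p = 0.841). The count of 1 was 2, with *Pde4d*, without mouse 9_1 or 9_2 and 0 with the trend on transcript length removed or without mice 8_4 and 9_3. Shares of all genes for the interaction in these settings are not given here. Averaged over duloxetine, the bacterium gave 0 calls among the 10 in limma, against 0.0267% of all genes, with DESeq2 (4.51% of the genes to which it gave an adjusted p) and edgeR (0.02% of all genes) at 0, and 6 genes lower at an unadjusted p under 0.05, against 10.4% of all genes. Those 6 were *Prkacb*, *Prkar2a*, *Adcy1*, *Adcy9*, *Pde4b* and *Pde4d*, with log2 fold changes from -0.08 for *Pde4b* to -0.22 for *Adcy9*. Without mouse 9_3 they were 4, *Prkacb*, *Prkar2a*, *Adcy9* and *Pde4d*, against 8.01% of all genes, and the lowest log2 fold change of the 10 was -0.15.

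**Figure D3:**
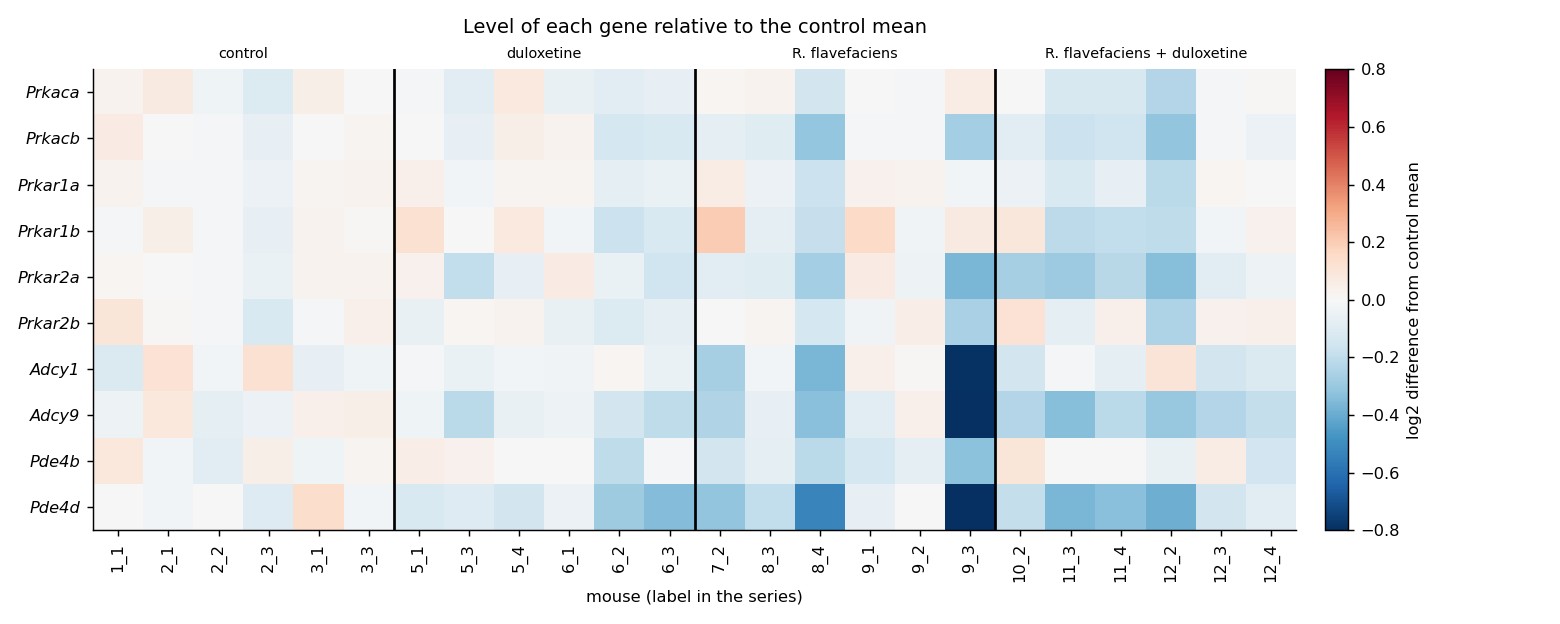
Log2 difference of each gene in each of the 24 mice from the mean of the 6 control mice, with blue for lower and red for higher values and the 4 groups divided by lines. Mice 8_4, 9_3 and 12_2 show the most blue, and the 2 values below -0.8, both of mouse 9_3, are drawn at -0.8.

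Most pairs of the 10 genes varied in the same direction within groups. With each group's mean subtracted, 42 of 45 pairs had a Pearson correlation above 0 over the 24 mice, with a median of 0.55, and 40 pairs did without mouse 9_3, with a median of 0.57. The strongest pair was *Prkacb* with *Prkar1a*, a catalytic and a regulatory subunit, at 0.88, followed by *Adcy9* with *Pde4d* at 0.85. *Adcy1* with *Adcy9* had 0.84, but 0.48 without mouse 9_3, when the correlations of *Adcy1* with the 8 remaining genes lay between -0.26 (*Prkar2b*) and 0.25 (*Pde4d*). The lowest pair was *Prkaca* with *Adcy1*, at -0.24, but it had -0.11 without mouse 9_3, when *Prkar2b* with *Adcy1* was lowest. Each mouse gives 1 library with 1 size factor to both genes of a pair, so these values describe the libraries as well as the genes.

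Of the 14973 other genes tested, those with the values most like *Prkacb* by the same measure were *Slc4a10*, a bicarbonate transporter, with 0.96, *Sv2b*, a protein of synaptic vesicles, with 0.96, *Fam169a* with 0.96, *Atp6v1a*, a subunit of the proton pump of vesicles, with 0.95 and *Pgm2l1*, an enzyme of sugar phosphates, with 0.95. Genes at the other end included *Rpl30*, a ribosomal protein, with -0.92 and *Prdx6*, a peroxiredoxin, with -0.91. Without mouse 9_3 these correlations lay between 0.952 and 0.957 and between -0.912 and -0.905. None of these 7 passed the threshold after the bacterium, with fold changes from -0.23 for *Pgm2l1* to 0.24 for *Rpl30* on the log2 scale (limma adjusted p from 0.15 to 0.181).

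The rest of the pathway was described with a list of 56 genes, of which 54 were in the table and tested. After the bacterium alone limma called 0 of the 54, and 11 were lower at an unadjusted p under 0.05, or 20.4% against 10.8% of all genes, while 2 were higher, or 3.7% against 8.86%. Their median log2 fold change was -0.06. DESeq2 called 3 of them, *Akap6*, *Akap11* and *Akap13*, or 6.67% of those with an adjusted p against 5.6% of all genes with one, and edgeR called 0. Without mouse 9_3, 5 were lower, or 9.26% against 6.13% of all genes, and 1 was higher at an unadjusted p under 0.05, while without control mouse 3_3, 7 were lower. For the 1 higher gene and for the setting without mouse 3_3, the share of all genes is not given here.

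The A-kinase anchoring proteins held most of the lower genes, as all 11 tested had a fold change below 0 after the bacterium and 6 were lower at an unadjusted p under 0.05, where 49.2% of all genes were below 0 and 10.8% lower. Without mouse 9_3, 4 of the 11 were lower, against 6.13% of all genes, and the median of the 11 went from -0.18 to -0.10. *Akap6*, an anchor found in muscle and brain, had the smallest p of the list. It ranged from 5943 to 6397 normalized counts in controls (median 6083), from 3478 to 5809 after the bacterium (median 5354) and from 4866 to 5663 after both treatments (median 5143), and every mouse of both groups lay below every control mouse, as held for 0.835% and 1.16% of all genes. Its log2 fold change was -0.31 (SE 0.085, adjusted p = 0.0755) after the bacterium, -0.21 (adjusted p = 0.191) without mouse 9_3, and -0.23 (SE 0.085, adjusted p = 0.191) after both. After the bacterium *Akap6* was called with the first label number as a random block and without mouse 8_3, 9_1 or 9_2. These settings called 221, 427, 239 and 616 genes in all. After both treatments it was called with only the groups compared and without mice 8_4 and 9_3, among 196 and 339 genes in all. Next after the bacterium came *Akap11* with -0.23 (SE 0.071, adjusted p = 0.093), *Akap13* with -0.25 (SE 0.078, adjusted p = 0.0973) and *Akap12* with -0.18 (SE 0.069, adjusted p = 0.154). Without mouse 9_3 *Akap11* had -0.15 and *Akap13* -0.18 (adjusted p = 0.263 and 0.306). After both treatments 5 of the 11 anchoring proteins were below 0, against 49.8% of all genes. At an unadjusted p under 0.05, 2 were lower and 2 higher, against 8.73% and 8.08% of all genes. The interaction was called for 0 of the 11 in limma, with 0% of all genes called.

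*Akap13*, another anchor of PKA, was the 1 gene of the list called between the combined and the *R. flavefaciens* group, or 1.85% of the list against 2.23% of all genes. It ranged from 538 to 720 normalized counts in controls, from 418 to 596 after the bacterium and from 622 to 762 after both treatments, so that every mouse given both lay above every mouse given the bacterium alone. The difference was 0.42 on the log2 scale (SE 0.078, limma adjusted p = 0.00943). It was also called without mouse 9_3 (adjusted p = 0.0234) and by DESeq2 and edgeR, but not when only the groups compared were fitted (adjusted p = 0.0666), where 0 of all genes were called. *Akap13* also had the smallest p of the list for the interaction, with 0.39 (SE 0.11, adjusted p = 0.639), which was not called.

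Among the other roles, the coactivator of CREB *Ep300* had -0.23 (SE 0.085, adjusted p = 0.137) after the bacterium and the cyclase *Adcy3* -0.19 (SE 0.075, adjusted p = 0.164), or -0.12 for *Ep300* and -0.15 for *Adcy3* without mouse 9_3 (adjusted p = 0.379 and 0.455). The 2 genes higher at an unadjusted p under 0.05 were *Ppp1r1a*, an inhibitor of protein phosphatase 1 that PKA activates, with 0.21 (SE 0.075, adjusted p = 0.129), and the PKA inhibitor *Pkig* with 0.12 (SE 0.051, adjusted p = 0.207). Without mouse 9_3 they had 0.17 and 0.08 (adjusted p = 0.39 and 0.537), and without mouse 8_4 *Pkig* had 0.11 (adjusted p = 0.313). Next came *Atf1*, *Ppp1r1b*, *Pde1b* and *Gnai2*, with 0.06 to 0.24 and adjusted p from 0.438 to 0.558. *Ppp1r1b* and *Pde1b* were high in mouse 8_4, with 2056 and 2775 normalized counts against at most 1039 and 1860 in its group mates, and without it their fold changes were -0.00122 and -0.02 on the log2 scale. Stimulatory G protein subunits (2 genes), inhibitory ones (5 genes) and the exchange factors activated by cAMP (2 genes) had no gene at an unadjusted p under 0.05 after the bacterium alone, and of the 13 other phosphodiesterases 1 was lower, or 7.69%. Of all genes, 10.8% were lower and 8.86% higher at that p, so these counts set none of these roles apart.

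After both treatments limma again called 0 of the 54, with 10 lower at an unadjusted p under 0.05, or 18.5% against 8.73% of all genes, and 4 higher, or 7.41% against 8.08%. DESeq2 called 1, *Adcy3*, or 1.92% of those with an adjusted p against 1.68% of all genes with one, and edgeR called 0. The count of lower genes was 6 without mouse 12_2 or without control mouse 2_1, settings for which the shares of all genes are not given here. *Adcy3*, the cyclase of olfactory neurons and of primary cilia, came first in limma, with -0.29 (SE 0.075, adjusted p = 0.0871), and it was called without mouse 9_3, as were 123 genes in all. After it came *Akap6*, *Adcy8* with -0.22, *Crem*, a factor of the CREB family, with -0.24, *Gnai1* with -0.13 and *Akap11* with -0.18 (adjusted p from 0.191 to 0.218). On the higher side were *Ppp1r1a* with 0.18, *Akap8l* with 0.22, the exchange factor *Rapgef4* with 0.27, *Akap13* with 0.17, *Akap7* with 0.13 and *Pde4c* with 0.31 (adjusted p from 0.228 to 0.417). In the remaining comparisons the pathway gene with the smallest p was *Adcy3* for duloxetine against control (-0.17, adjusted p = 0.9996), *Adcy8* for the combined against the duloxetine group (-0.27, adjusted p = 0.816) and *Akap6* for the bacterium averaged over duloxetine (-0.24, adjusted p = 0.0983). For that average, DESeq2 called *Akap6* and *Akap11*, among 361 genes in all. Limma called *Akap6* without mouse 8_3 or without mouse 9_2, with 135 and 69 genes called in all.

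**Figure D4:**
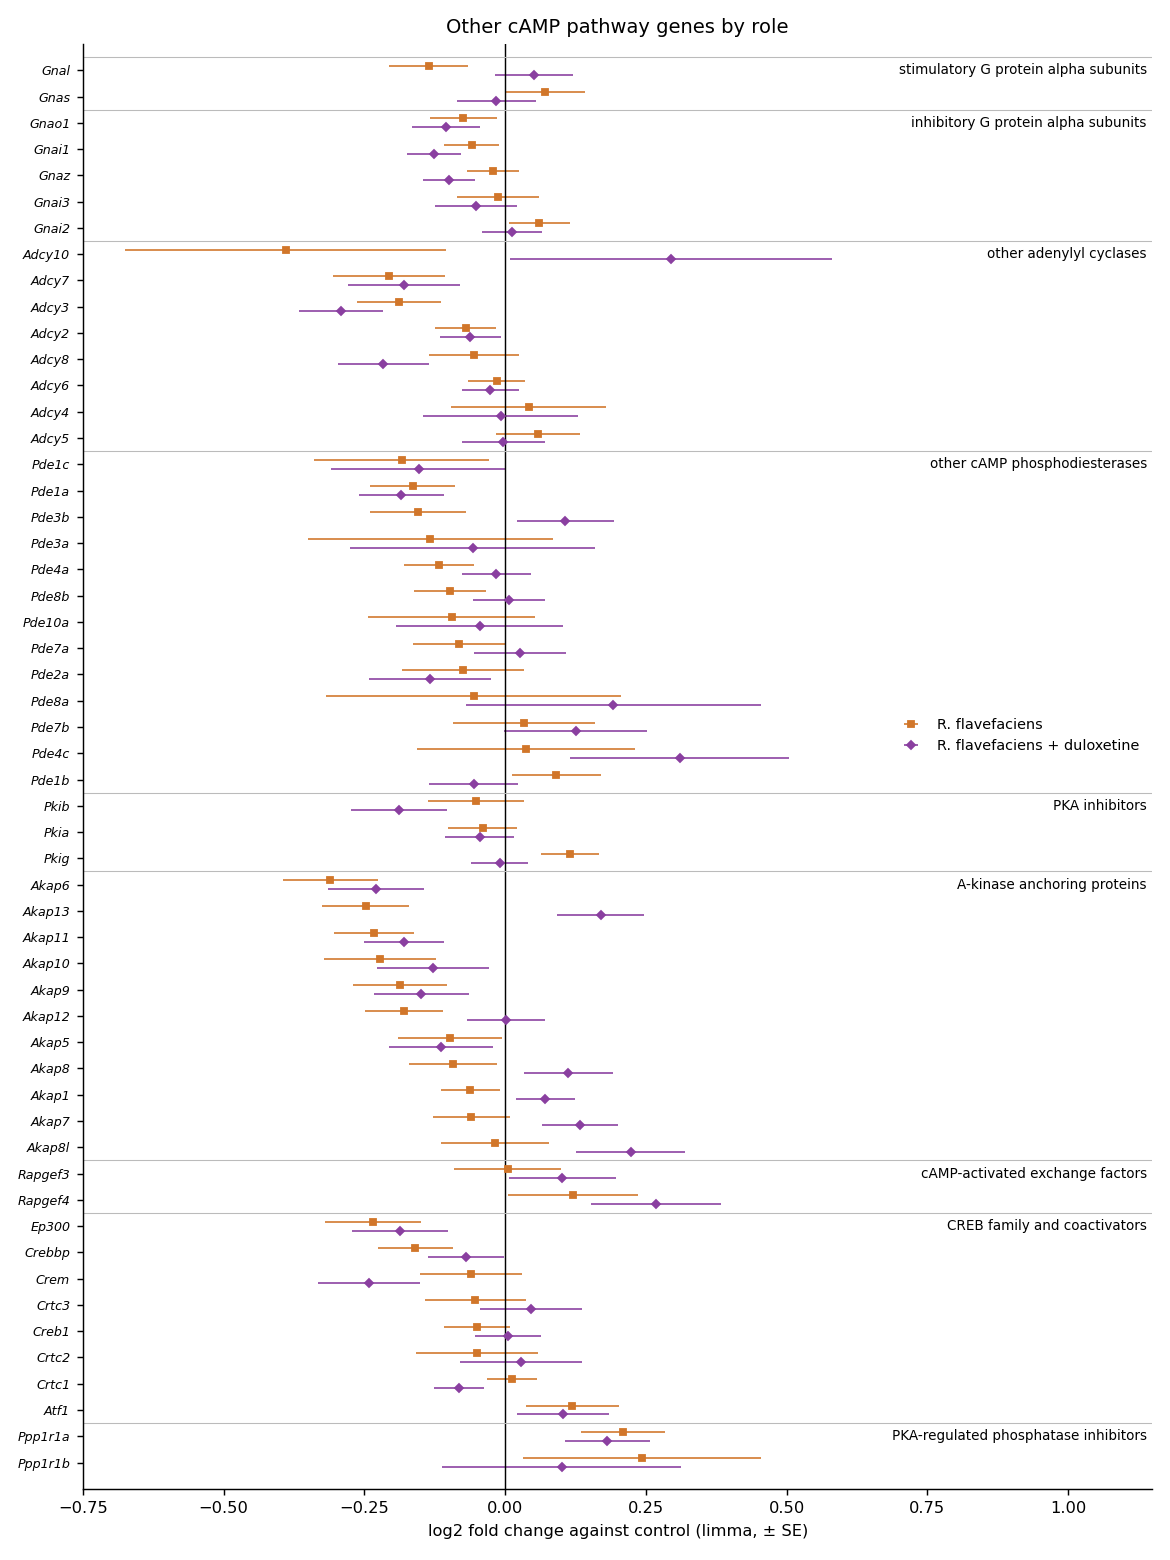
Log2 fold change against control with its standard error from limma for 54 other genes of the cAMP pathway, grouped by role, after R. flavefaciens (squares) and after R. flavefaciens + duloxetine (diamonds), 6 mice per group. All 11 anchoring proteins lie below 0 after the bacterium alone, and Akap13 lies on opposite sides of 0 in the 2 groups.

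Transcript length moved with these differences. Over 14958 genes with a length, the log2 fold change after the bacterium had a Spearman correlation of -0.44 with the merged exon length, or -0.34 without mouse 9_3, and after both treatments it was -0.21. Among genes in the lowest 25% of lengths the median fold change after the bacterium was 0.10, and in the highest 25% it was -0.09. Without mouse 9_3 these medians were 0.068 and -0.055. Among the 10 PKA and cAMP genes, the 6 with an unadjusted p under 0.05 had merged exons from 5197 bases (*Adcy9*) to 12522 bases (*Adcy1*), and the other 4 from 2488 bases (*Prkaca*) to 4321 bases (*Prkar1a*), where the median of all genes was 4444 bases. With the trend on length removed from each mouse, the median of the 10 genes was -0.07 after the bacterium, and 2 genes were lower at an unadjusted p under 0.05, against 6.68% of all genes, *Adcy9* with -0.30 and *Pde4d* with -0.21 (limma adjusted p = 0.246 and 0.202). After both treatments the median was -0.09 and 5 genes were lower, against 8.58% of all genes. In that setting *Prkacb* had -0.06, *Adcy1* -0.11 and *Pde4b* -0.07 after the bacterium, *Akap6* had -0.17, and *Akap13* had -0.07 after the bacterium and 0.25 after both treatments.

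**Figure D5:**
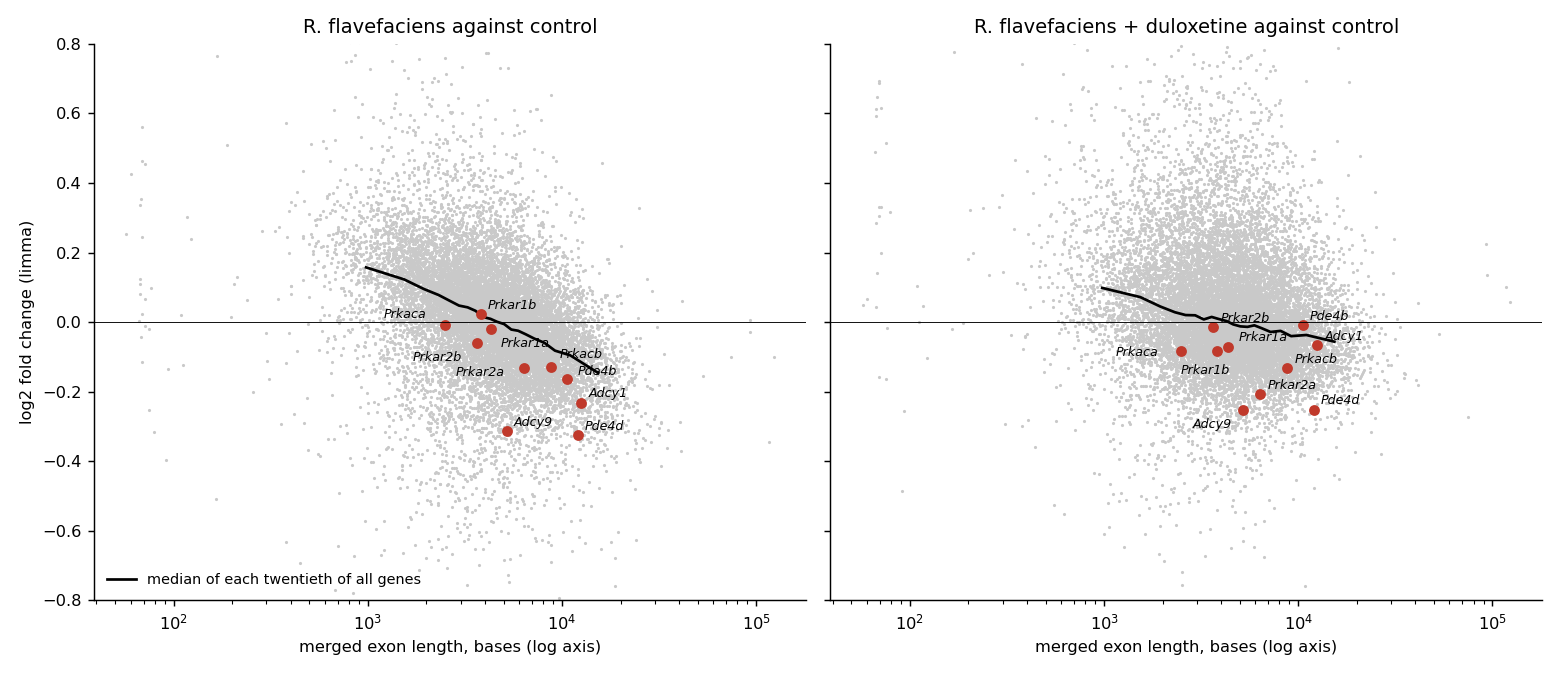
Log2 fold change against merged exon length on a log axis, for all genes (grey), with the median of each of 20 bins of equal size (line) and the 10 genes (red), for both groups given the bacterium. After R. flavefaciens the line falls with length and the 6 genes at an unadjusted p under 0.05 lie in its longer part, and the 31 and 35 genes beyond ±0.8 are outside the drawn range.

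Markers of cell types were measured beside these genes. Beside the striatal markers given above, each of 6 lists of 6 genes was found whole, and no marker was at 0 in any mouse. The excitatory neuron markers, led by *Camk2a*, the kinase of excitatory synapses, summed to 101553 ± 3644 normalized counts in control, 103086 ± 6454 in *R. flavefaciens* and 105076 ± 5866 in combined mice (SD, n = 6), and 0 of 6 were called in any of the comparisons against control. Inhibitory neuron markers, led by *Gad1*, summed to 10051 ± 464 in control, 10927 ± 388 in *R. flavefaciens* and 10460 ± 651 in combined mice, and 3 of 6 were higher at an unadjusted p under 0.05 after the bacterium, against 8.86% of all genes. Oligodendrocyte markers, led by *Mbp*, varied most between mice, from 13868 to 37718 in control, from 12095 to 45393 in *R. flavefaciens* and from 11506 to 51301 in combined mice. Of the treated mice, 6 had sums above every control mouse. These were 12_2 with 51301, 8_4 with 45393, 6_3 with 45134, 6_2 with 45017, 11_4 with 44905 and 9_2 with 43463. In the first 5 of these mice, 8, 10, 6, 6 and 7 of the 10 PKA and cAMP genes lay below every control mouse, and in mouse 9_2 0 did. Mice 9_3 and 11_3, each with 7 genes below every control, had 30055 and 32102, while mouse 7_2, with 6 such genes, had 12095, and mouse 10_2, with 5, had 21566. Control mouse 2_3, with 7 genes below every other control mouse, had 37718. The share of all genes below every control in each of these mice is not given here. Astrocyte markers, led by *Slc1a2*, summed to 61655 ± 3952, 58899 ± 7233 and 68465 ± 8226 in these groups, with the lowest sum, 46348, in mouse 9_3. *Slc1a2* makes up most of this sum, and the median fold change of the 6 astrocyte markers after the bacterium was 0.11 on the log2 scale, with 2 of 6 below 0. Microglial markers, led by *Csf1r*, summed to 3300 ± 166 in control, 3673 ± 263 in *R. flavefaciens* and 3804 ± 509 in combined mice, and 3 and 4 of 6 were higher at an unadjusted p under 0.05, against 8.86% and 8.08% of all genes. Duloxetine mice, with 3649 ± 327, had 4 of 6 higher, against 2.2% of all genes. Endothelial markers, led by *Flt1*, summed to 2993 ± 173, 3214 ± 135 and 3317 ± 549. The part of cell composition, dissection or transcript length in the values of the PKA and cAMP genes was not tested.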

How the data were processed

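RNA-seq of 24 mPFC libraries was analysed, with groups taken from the labels. The deposited values are a signal per gene, normalized counts that the authors made by dividing gene counts by a size factor. Per the labels and methods, poly(A) libraries were aligned with TopHat2 2.1.0 and Bowtie2 2.2.6 and handled with DESeq2 1.18.1. The counting program and strand setting are not given in the sources used here. The processing notes name mm9 and the methods GRCm38, and the positions of 14285 of 15456 genes equal those of a GENCODE annotation of GRCm38, which gave exon lengths. Of 370875 values above 0, 99.997% were whole multiples of the value of 1 read, within 0.0051 normalized counts. The recovered reads were used for edgeR 4.0.16 and DESeq2 1.42.0.

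The main test was limma 3.58.1 (R 4.3.3, trended variance, two-sided) on log2(value + 1), over 14974 genes with a mean of at least 10, with the 4 groups in 1 fit, Benjamini-Hochberg adjustment within each comparison and a threshold of 0.05. The step was tested on simulated data. Summaries used Python 3.11.15. The 10 genes and all lists were chosen with earlier results of these data known. Named pathway genes were those called, and the 6 lower and 6 higher ones with the smallest p in the comparisons of both groups given the bacterium with control, and 1 per other comparison. For likeness to *Prkacb*, the 5 highest and 3 lowest correlations were taken. From these and from the striatal marker list, 1 gene each is not reported here. The labels name single mice, which shared cages, and what the first label number marks is not stated. Alternatives were other normalizations, filters, pseudocounts and tools, fitting only the groups compared, a block, removal of the length trend and leaving out each mouse, and, chosen after seeing the data, mice 8_4 and 9_3 together.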

Additional observations from a re-analysis of the deposited data

Results flagged for a closer look

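In the duloxetine group, *Pde4b* in mouse 6_2 lay far from its group mates, with 1250.39 normalized counts against 1420 to 1495 in the other 5 mice. Its gap to the nearest value exceeded the 95% critical value of Dixon's ratio for 6 samples. Of the 40 sets of 6 values checked, 10 genes in 4 groups, this was the 1 that did, and chance gives about 1 in 20.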

How the results depend on the processing

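Of the 15 counts and medians, 153 values under other settings stayed within 1.5 times a count or within 0.0810 of a median, the SD between mice of a group, and 17 did not, and of the 20 fold changes, 201 kept direction and side of the threshold, 12 turned sign and 7 came to pass the threshold. For the bacterium against control, the count called of the 10 genes was 2 with DESeq2 and 2 at an adjusted p under 0.1, and 0 to 1 as each mouse was left out (1 without mouse 9_1 or 9_2). Over all genes, 497 were called with DESeq2, 579 at an adjusted p under 0.1, 239 without mouse 9_1 and 616 without mouse 9_2. The main fit called 4 of 14974. The count of lower genes was 2 with the length trend removed, 1 without mice 8_4 and 9_3, and 3 to 6 with 1 mouse left out (3 without mouse 9_3), and the median was -0.04519 without mice 8_4 and 9_3. Here and below, counts of lower genes whose share over all genes is not given above cannot be told from a shift in all genes. For both treatments against control, the count called was 2 with only the groups compared, 3 without mice 8_4 and 9_3, and 0 to 1 with 1 mouse left out (1 without mouse 9_3). Over all genes, these 3 settings called 196, 339 and 123, where the main fit called 15 of 14974. The count of lower genes was 2 with 75th percentile rescaling and 2 to 5 with 1 mouse left out. Between the groups given the bacterium, 1 was called at an adjusted p under 0.1 and 0 to 1 with 1 mouse left out. It was 1 without mouse 12_4, where 474 of all genes were called. Averaged over duloxetine, 3 genes were lower with the length trend removed. Of the pathway list, the count called after the bacterium was 1 with the first label number as a random block, 3 with DESeq2, 3 at an adjusted p under 0.1 and 0 to 3 with 1 mouse left out (3 without mouse 9_2). The block called 221 of all genes, and the counts over all genes for the other settings named are given above. After both treatments the pathway count was 3 with only the groups compared, 1 with DESeq2, 3 without mice 8_4 and 9_3, 1 at an adjusted p under 0.1 and 0 to 1 with 1 mouse left out. DESeq2 called 217 of all genes there.

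The fold changes that turned sign ran in the main fit from -0.07 (*Prkar1a* after both treatments) to 0.02 (*Prkar1b* after the bacterium). After the bacterium, *Prkaca* had 0.03928 with quantile normalization, 0.006718 with 75th percentile rescaling, 0.009458 without mice 8_4 and 9_3 and from -0.03001 to 0.01964 with 1 mouse left out (0.005748 and 0.0003128 without control mice 2_1 and 3_1). *Prkar1a* had 0.04072 with quantile normalization, 0.01918 without mice 8_4 and 9_3 and from -0.03436 to 0.01106 with 1 mouse left out, *Prkar1b* from -0.01432 to 0.0634 with 1 mouse left out (-0.00413 without mouse 9_1), and *Prkar2b* 0.01073 without mice 8_4 and 9_3. After both treatments, with quantile normalization, *Prkar1a* had 0.0002977, *Prkar2b* 0.02579 and *Pde4b* 0.04163. With 75th percentile rescaling *Prkar2b* had 0.01686 and *Pde4b* 0.02277, and *Pde4b* had 0.03676 with the length trend removed. With 1 mouse left out *Prkar2b* had from -0.0407 to 0.03142 (0.004465 without control mouse 1_1) and *Pde4b* from -0.03075 to 0.02005 (0.007297 without control mouse 1_1 and 0.0003252 without mouse 12_2). That SD is near the size of the medians themselves. Beside the one given above, medians that shrank by over 1.5 times were -0.07438 after the bacterium with the length trend removed, -0.05108 and -0.05109 after both treatments with quantile normalization and 75th percentile rescaling, and, averaged over duloxetine, -0.05715 with quantile normalization, -0.06101 with the length trend removed and -0.0495 without mice 8_4 and 9_3. The cause of these shifts was not tested. No paired analysis was possible because the first label number belongs to 1 group each and nothing ties the second to a shared source. The limma p-values set a difference between groups against the spread between mice within groups. In the main fit, mice with the same first label number were treated as independent. Depth limits *Pde4d* most, which had the lowest counts of the 10 genes. Over all genes, the first label number as a block had a correlation of -0.0451 within groups.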
